A study of Mus musculus with 947 samples.

Results

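Small noncoding RNA was sequenced from the kidneys of mice whose circulation had been joined by surgery, and 29 of the 176 libraries of this parabiosis experiment came from kidney, out of 947 samples in the whole series. The kidney libraries were chosen by the tissue given in the sample labels, without use of any measured value. Heterochronic aged (HA) mice were aged mice joined to a young partner (6 libraries), heterochronic young (HY) mice were young mice joined to an aged partner (7 libraries), and isochronic aged (IA, 8 libraries from 4 pairs) and isochronic young (IY, 8 libraries from 4 pairs) mice were joined to a partner of their own age. All mice were male, the pairs stayed joined for 5 weeks, and organs were taken after perfusion with saline. HA and IA mice were 19 months old, HY mice were 4 months old, and of the IY mice 4 were 3 months and 4 were 4.5 months old. IY, HA and IA mice were C57BL/6 mice of the same substrain, except for 1 HA mouse (20A) and 2 IA mice (19A and 19B) of another. The sources of the study disagree on which of these is C57BL/6J and which C57BL/6JN, so the 3 mice are named by number only. Every HY mouse was of a transgenic strain that none of the other groups had. Partner and strain therefore cannot be told apart in the comparison of HY with IY, nor age and strain in that of HA with HY. Only HA mice had a transgenic partner, so age and strain of the partner cannot be told apart in the comparison of HA with IA. Libraries are named by the number of the pair and a letter for the mouse.

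In heterochronic parabiosis the partners share a circulation, so that blood cells, proteins and vesicles with small RNA of a mouse of another age reach each organ. MicroRNAs (miRNAs) are the small RNAs best covered by this type of library: each is cut from a hairpin precursor and binds messenger RNAs mainly through its seed, bases 2 to 8 from the 5′ end. The kidney is made mostly of tubule epithelium, in which miR-192, the miR-30 family and the miR-200 family are abundant. miR-21, miR-214 and miR-199a are known to rise in injured and fibrotic kidney, miR-223 and miR-142 are made by blood cells, and miR-124 is best known from neurons. Fragments of transfer RNA (tRNA), small nucleolar RNA (snoRNA) and long noncoding RNA (lncRNA) were counted in the same libraries.

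The mature sequences of the miRNAs on which the main comparisons turned are shown with the seed in capitals, from RefSeq on GRCm38.p6. Higher in HA than in HY, and shown for their roles in fibrosis and inflammation, were

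miR-21a-5p: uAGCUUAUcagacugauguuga
miR-214-3p: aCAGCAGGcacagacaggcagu
miR-146b-5p: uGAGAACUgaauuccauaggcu
miR-212-3p: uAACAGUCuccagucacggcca
miR-223-3p: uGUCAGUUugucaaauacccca

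and lie at chr11:86584120-86584141 (minus strand), chr1:162223438-162223459 (plus), chr19:46342790-46342811 (plus), chr11:75173443-75173464 (plus) and chrX:96242884-96242905 (plus). The 3 that were lower in HA and are shown for the size of the difference or for their level were

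miR-551b-3p: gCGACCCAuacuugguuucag
miR-190a-5p: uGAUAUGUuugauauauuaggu
miR-455-3p: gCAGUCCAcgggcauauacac

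and lie at chr3:29416879-29416899 (plus), chr9:67236700-67236721 (minus) and chr4:63256904-63256924 (plus). A pair that was higher in IA than in IY was

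miR-142a-3p: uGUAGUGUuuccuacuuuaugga
miR-148a-3p: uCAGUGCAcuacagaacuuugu

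at chr11:87756903-87756925 (plus) and chr6:51269829-51269850 (minus). No seed was shared among these 10 miRNAs.

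Values are given in rpmm, the reads of an RNA scaled by the authors to the aligned reads of the library, and differences as log2 fold changes of rpmm + 1 with their standard error (SE). Of 5248 RNAs the 3315 with a value of 1 rpmm or more in 10% of these libraries were tested, 537 of them miRNAs, and an RNA was called at a Benjamini-Hochberg adjusted p below 0.05 over all 3315 in limma. Library depth, recovered from the steps of the values, was 13.6 to 47.6 reads for each rpmm (median 21.0), so that a value of 1 rpmm rested on 13.6 reads or more. In log2 miRNA levels each of the 29 libraries was most like the median profile of the other kidney libraries (lowest r = 0.984), and the next tissue reached at most r = 0.946. The 20 miRNAs listed for kidney epithelium summed to a median of 52952 rpmm in kidney, against 7368 to 22319 in the other 5 tissues. IA 7B (median r with its own group 0.975) and HA 14A (r = 0.980, and the lowest summed miRNA signal) stood apart from the others. The libraries were sequenced in 3 pools. Para-1 held 16 kidney libraries of all 4 groups, Para-2 held 9 kidney libraries together with 7 of limb muscle, and Para-6 held 4 kidney libraries, all heterochronic, with 2 of heart and 5 of mesenteric fat. Summed miRNAs of skeletal and heart muscle, 7 in the list, reached 43.3 to 139 rpmm in the kidney libraries of Para-1, 208 to 309 in Para-6 and 641 to 1429 in Para-2. Since 5 of 8 IY libraries but 2 of 8 IA, 1 of 6 HA and 1 of 7 HY libraries were in Para-2, this list moved with the groups as well as with the pool. Its median difference was -0.93 in HY-IY and -0.92 in IA-IY, with no member called, and its part in other results was not tested.

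The comparison of HA with HY asks how aged and young kidneys differed when both mice had lived on a mixed circulation, and it held most of the differences in this tissue. Of 3315 RNAs, 188 were called (5.67%), 131 higher in HA (3.95%) and 57 lower (1.72%). Among the 537 miRNAs 52 were higher and 34 lower, among 1370 lncRNAs 27 and 21, among 214 tRNAs 44 and 0, among 416 snoRNAs 6 and 1, among 598 small nuclear RNAs 2 and 0, and among 140 ribosomal RNAs 0 and 1. For 53 of the 188, 45 higher and 8 lower, the ranges of the HA and HY libraries did not touch, as for 61 of all 3315 RNAs (1.84%). The median difference was 0.01 over all RNAs and -0.03 over miRNAs. edgeR on the recovered reads called 217 RNAs and DESeq2 271, and pool Para-1 alone, with 3 HA and 4 HY libraries, gave 60. The count was 113 without HA 1A, 120 without HY 20B and 145 without both libraries that stood apart. As the mice were joined in pairs, a fit with the 6 complete pairs as a fixed block was also made, which is meant where a value with the pair as a block is given for HA-HY: it called 95 RNAs, 79 higher and 16 lower.

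miR-147-3p, which macrophages make on stimulation of Toll-like receptors, had the clearest difference. It reached 12.6 rpmm at the lowest, 16.8 at the median and 20.2 at the highest in HA, and 2.17, 3.02 and 5.17 in HY. In IY it was 2.40, 3.61 and 6.56, and in IA 4.84, 5.69 and 13.4. Every HA library thus stood above every HY and every IY library, and above 7 of the 8 IA libraries, since only IA 19B reached the HA range. The means were 16.5 ± 3.03 (SD, n = 6) and 3.16 ± 1.00 (n = 7), which on the log2 scale was a difference of 2.09 ± 0.21 (adjusted p = 1.26e-07). Within pool Para-1 the ranges were 13.5 to 20.2 rpmm in 3 HA and 2.83 to 5.17 in 4 HY libraries.

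Of the miRNAs known from fibrosis that were called in HA-HY, miR-21a-5p was the most abundant. It measured 12863 rpmm at the lowest, 25914 at the median and 31496 at the highest in HA, against 6949, 8262 and 11934 in HY. In IA it measured 8775, 13403 and 20898 rpmm, and in IY 6062, 8078 and 15639. HA and HY did not overlap, and the means of 23353 ± 6995 and 8857 ± 2042 rpmm differed by 1.37 ± 0.22 (log2; adjusted p = 0.000352). miR-214-3p, cut from the Dnm3os transcript together with miR-199a, was 213, 423 and 773 rpmm in HA and 111, 124 and 317 in HY. Its difference was 1.47 ± 0.27 (adjusted p = 0.00138), with some overlap of the groups. miR-212-3p, from a hairpin next to that of miR-132 and induced by the factor CREB, was 16.4, 30.7 and 34.2 rpmm in HA and 6.13, 8.97 and 13.6 in HY. It was higher in each HA than in each HY library, by 1.43 ± 0.29 (adjusted p = 0.00328). Its neighbor miR-132-3p showed another pattern: it was at most 2.28 rpmm in pool Para-2 and at most 19.7 in Para-1, while in Para-6 HA 1A had 14 rpmm and HA 5A 133, and HY 1B and 2B had 31.8 and 43.7, and it was not called in HA-HY (1.19 ± 0.79, adjusted p = 0.50).

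Among miRNAs of white blood cells and inflammation, miR-146b-5p, a brake on signaling by Toll-like receptors, ranged over 33.4, 52.2 and 123 rpmm (lowest, median, highest) in HA and 13.1, 18.7 and 32.7 in HY. The groups came close but did not overlap, and differed by 1.46 ± 0.28 (adjusted p = 0.00196). miR-223-3p, abundant in neutrophils and other myeloid cells, was 117, 214 and 325 rpmm in HA and 71.2, 80.9 and 94.9 in HY. The HY libraries were tightly grouped below all HA libraries, and the difference was 1.35 ± 0.24 (adjusted p = 0.000813). miR-375-3p, known from pancreatic islets and from epithelia, was 244, 299 and 360 rpmm in HA and 94.5, 109 and 337 in HY, where library 12B alone exceeded 136. It differed by 1.2 ± 0.28 (adjusted p = 0.00916), whereas the other tested miRNA of the pancreas list, miR-216a-5p, had means of 1.75 and 1.15 rpmm (0.30 ± 0.37, not called). miR-124-3p was 22.9, 51.7 and 184 rpmm in HA and 8.96, 13.8 and 28.1 in HY, with overlap (1.72 ± 0.49, adjusted p = 0.0345). That call was lost when any of 7 of the 13 libraries was left out (HA 12A, 20A or 5A, or HY 11B, 12B, 14B or 5B).

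**Figure D1:**
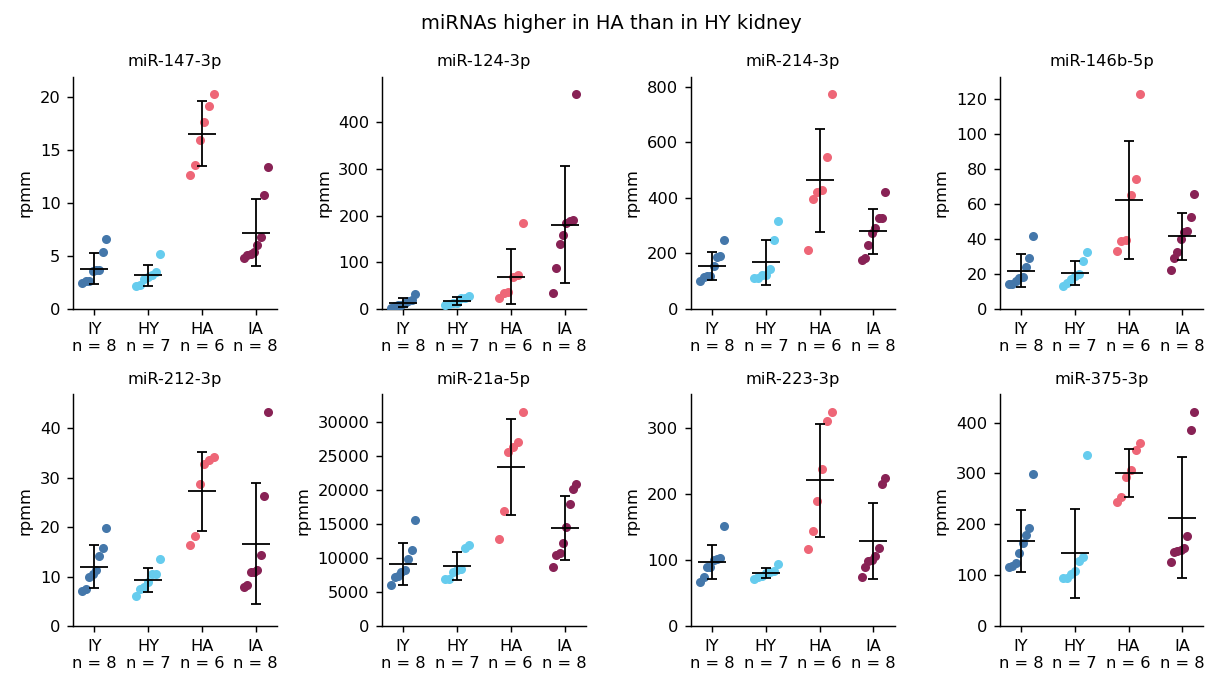
Levels in rpmm of the 8 named miRNAs that were higher in HA than in HY kidney. Each point is a library, sorted by value within its group, and bars give the mean ± SD. HA and HY do not overlap for miR-147-3p, miR-146b-5p, miR-212-3p, miR-21a-5p and miR-223-3p, while IA libraries reach into the HA range in each panel.

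RNAs of other classes were also higher in HA. When only RNAs with a mean of at least 10 rpmm were tested, 42 tRNAs, 10 lncRNAs and 7 snoRNAs were called higher, beside 28 miRNAs. Described here are those with the largest differences. The snoRNA Gm50451 (chr5:23710991-23711061, minus strand) measured 102, 215 and 378 rpmm in HA and 65.2, 71.8 and 94.8 in HY, without overlap (1.45 ± 0.26, adjusted p = 0.000813). tRNA-Lys-CTT-14-1 was 30.3 to 48.7 rpmm in HA and 9.33 to 27.7 in HY (1.04 ± 0.24, adjusted p = 0.00667). The lncRNA Gm49890 rose by 1.03 ± 0.19 (adjusted p = 0.00132), but its exons hold the Mir31 hairpin (chr4:88910557-88910662), and miR-31-5p itself differed by 1.04, so the reads of the 2 entries may be shared. The same holds for Mir124a-1hg (1.15 ± 0.32, adjusted p = 0.0297), whose exons hold the hairpins Mir124a-1 and Mir3078. Its call was lost without HA 12A or 5A, or without HY 11B, 14B or 5B.

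In the other direction miR-551b-3p stood out. The HA libraries measured 4.25, 12.7 and 23.6 rpmm (lowest, median, highest), and the HY libraries 52.3, 67.2 and 118. The IY libraries were at 25.7, 58.2 and 95.4, and the IA libraries at 9.08, 35.3 and 71.2. All HA libraries were thus below all HY and all IY libraries, and the IA libraries spread over both ranges. The means of 11.9 ± 7.19 (SD, n = 6) and 77.9 ± 22.7 rpmm (n = 7) differed by -2.78 ± 0.40 (log2; adjusted p = 6.42e-05). Within pool Para-1 the ranges were 4.25 to 13.2 rpmm in HA and 52.3 to 80.4 in HY.

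Both arms of 2 further hairpins were lower in HA. miR-190a-5p, whose hairpin lies in an intron of the talin gene Tln2, was 346, 483 and 1075 rpmm in HA and 988, 1144 and 1355 in HY. Of the 6 HA libraries only 20A reached the HY range, and the difference was -1.09 ± 0.20 (adjusted p = 0.000871). The other arm, miR-190a-3p, differed by -1.25 ± 0.30 (12.5 to 65.2 against 57.7 to 118 rpmm, adjusted p = 0.0110, and 0.0505 with the pair as a block). miR-874-5p and miR-874-3p, from an intron of Klhl3, a gene known for its part in salt handling of the distal tubule, differed by -1.27 ± 0.27 (adjusted p = 0.00427) and -1.53 ± 0.45 (adjusted p = 0.0393). The call of miR-874-3p was lost without any of 8 of the 13 libraries (HA 11A, 12A, 14A or 1A, or HY 11B, 1B, 20B or 2B), and that of miR-874-5p with none. With the pair as a block miR-874-3p was not called (adjusted p = 0.129). miR-455-3p, from an intron of the collagen gene Col27a1, was 37.9 ± 16.8 against 81.4 ± 33.5 rpmm (-1.14 ± 0.26, adjusted p = 0.00667, and 0.0793 with the pair as a block). The less known miR-1968-5p (-1.09 ± 0.21, adjusted p = 0.00222) and miR-12206-5p (-1.07 ± 0.29, adjusted p = 0.0220, and 0.0726 with the pair as a block) were also lower, the latter not without HA 11A, 12A, 14A or 1A or without HY 2B. Of other classes, the lncRNA 4930470O06Rik (-1.13 ± 0.28, adjusted p = 0.0137) and the ribosomal RNA Gm24601 (-0.49 ± 0.14, adjusted p = 0.0373, and 0.0939 with the pair as a block) were called, the latter in 4 of the 13 fits that each left out a library (all but those without HY 11B, 12B, 1B, 20B or 2B or HA 12A, 14A, 1A or 5A).

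**Figure D2:**
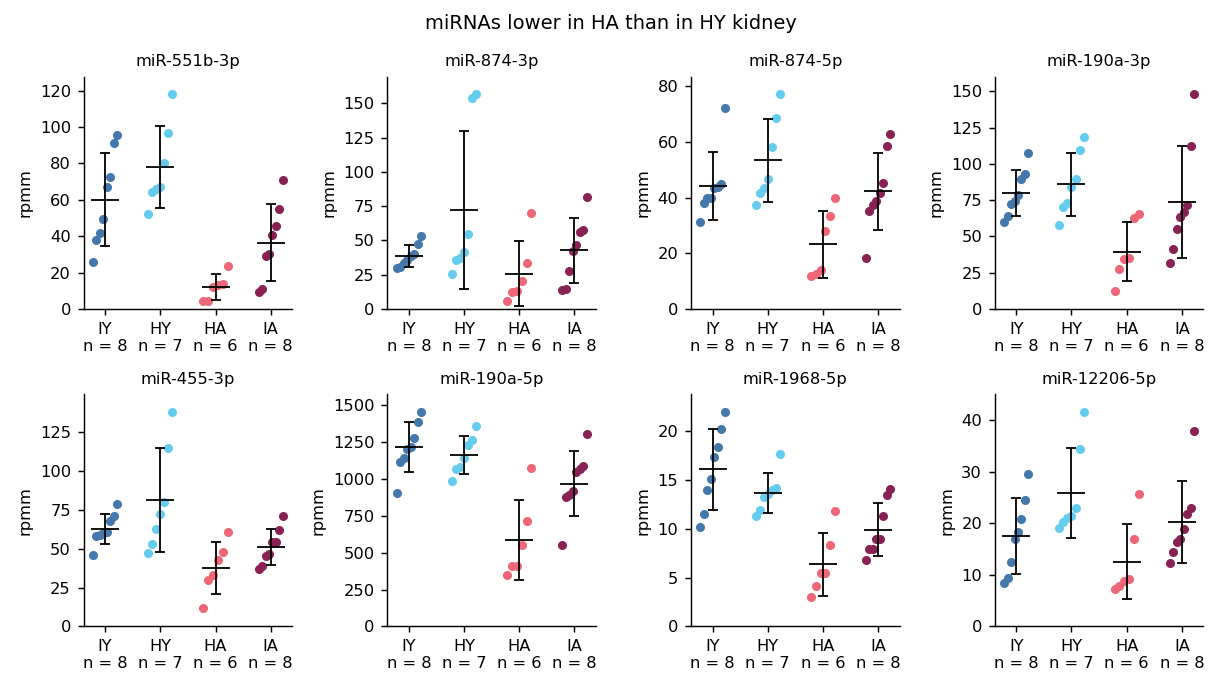
Levels in rpmm of the 8 named miRNAs that were lower in HA than in HY kidney, drawn as points per library with the mean ± SD. For miR-551b-3p no HA library exceeds 23.6 rpmm and no HY library lies under 52.3 rpmm, and for the other 7 the groups overlap in 1 or more libraries.

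The called miRNAs were also read by hairpin, by cluster and by seed. For 18 hairpins both arms were called in HA-HY, and in all 18 the arms moved in the same direction, as they did in 18 of 19 hairpins with 1 called arm and in 125 of 156 hairpins with both arms tested. Arms of a hairpin come from the same precursor, so they are not independent observations. In 6 groups of neighboring hairpins more than 1 miRNA was called, always in the same direction, though not every tested neighbor was. Higher were 2 of 3 tested on chromosome 11 (miR-212-3p and miR-132-5p), 3 of 8 on chromosome 14 (miR-17-5p, miR-18a-5p and miR-19b-1-5p), and on chromosome 6 all 3 of miR-653 and miR-489 and 4 of 5 of miR-182 and miR-183. Lower were 2 of 3 on chromosome 4 (miR-30c-1-3p and miR-30e-5p) and 2 of 5 on the X chromosome (miR-363-3p and miR-20b-5p). Hairpins of a cluster are often cut from the same transcript, so these are not independent observations. Among the 437 tested miRNAs with a sequence, 3 seeds were shared by 2 called miRNAs each. miR-17-5p and miR-20b-5p share a seed and moved in opposite directions (0.56 and -0.79), whereas miR-199a-3p and miR-199b-3p share one and rose alike (0.86 each), with nearly the same reads counted for both. miR-3073a-5p and miR-3073b-5p were both lower (-0.54 and -0.73).

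The comparison of IA with IY asks about age in pairs of equal partners, and it shares no mouse with HA-HY. Of 3315 RNAs 12 were called (0.362%), 9 higher in IA (0.271%) and 3 lower (0.0905%). Of these 12 the ranges of 6 did not touch, as for 13 of all RNAs (0.392%). Scaled to the summed miRNA signal the calls were 23 higher and 3 lower, and scaled by median ratios 11 higher and 9 lower. edgeR called 13 and DESeq2 89. The count rested on some libraries, being 30 without IY 10A, 45 without IY 10B and 7 without IY 15A or without IY 15B, and it was 5 with the pool in the model, 2 within pool Para-1 alone, and 28 without both HA 14A and IA 7B. The RNAs that remained in Para-1 were miR-124-3p and Mir124a-1hg.

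miR-124-3p had the largest difference of any called RNA in the tissue. It measured 34.7, 172 and 461 rpmm (lowest, median, highest) in IA and 2.21, 10.9 and 32.4 in IY. Every IA library was above every IY library, and HA lay between them with HY near IY. The difference was 3.65 ± 0.44 (180.7 ± 126 against 13.4 ± 9.50 rpmm, n = 8 and 8, adjusted p = 6.36e-06), and in pool Para-1 it was 139 to 461 rpmm in 6 IA against 9.32 to 32.4 in 3 IY libraries. The other 4 miRNAs of the neuron list gave no such values: miR-9-5p (-0.44 ± 0.15), miR-9-3p (-0.27 ± 0.14), miR-138-5p (-0.28 ± 0.12) and miR-128-3p (0.08 ± 0.21) were not called. Mir124a-1hg (chr14:64588051-64593961, plus strand) differed by 2.28 ± 0.29 (204 ± 122 against 36.2 ± 8.21 rpmm, adjusted p = 1.00e-05). An exon of it holds the Mir124a-1 hairpin at chr14:64590657-64590741, so it is no independent observation.

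miR-142a-3p, made by most white blood cells, was 663, 1183 and 1628 rpmm in IA and 285, 444 and 859 in IY, with overlap (1.14 ± 0.23, adjusted p = 0.0148). Its call was lost with the pool in the model, with IY of 4.5 months alone and within pool Para-1. More RNA per cell and more cells of a type cannot be told apart in such bulk samples, nor can less and fewer. miR-148a-3p, which is abundant in liver and acts on cholesterol metabolism, was 43, 56.1 and 81.5 rpmm in IA and 20.2, 26.6 and 37.7 in IY. The groups did not overlap, and the difference was 1.04 ± 0.17 (adjusted p = 0.00153). That call was kept with the pool in the model, but lost with IY of 4.5 months alone and within Para-1. The summed liver list, miR-122-5p and miR-122-3p, was 9.05 to 25.6 rpmm in IA and 5.96 to 401 in IY. The snoRNA Snora75 (chr1:86351169-86351301, minus strand) was higher by 0.60 ± 0.13 (adjusted p = 0.0232), but not without IY 15A, 15B or 16A or IA 7A. miR-450b-3p was lower by 0.54 on the log2 scale (SE 0.12, adjusted p = 0.0307, and 0.0625 with the pair as a random block), a call that was lost in 10 of the 16 fits with a library left out (IY 15A, 15B, 16A, 16B or 17B, or IA 19A, 19B, 7B, 9A or 9B). Snora75 and miR-450b-3p were also not called with the pool in the model or within Para-1. The other 6 called RNAs were below 10 rpmm: miR-135b-5p (0.83), miR-153-3p (0.84), miR-511-3p (0.86) and miR-3106-5p (0.84) higher, and the lncRNAs D030045P18Rik (-0.53) and Gm49420 (-0.56) lower.

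**Figure D3:**
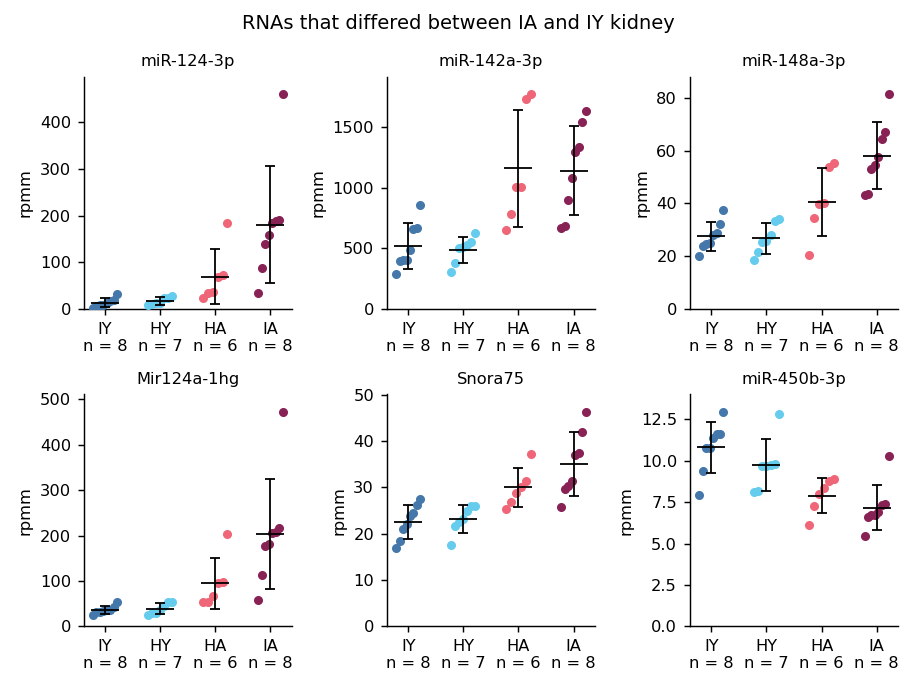
Levels in rpmm of the 6 named RNAs that differed between IA and IY kidney, drawn as points per library with the mean ± SD. IA and IY do not overlap for miR-124-3p, Mir124a-1hg and miR-148a-3p, and for miR-124-3p the HA libraries (22.9 to 184 rpmm) overlap with the IA libraries (34.7 to 461 rpmm).

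Both age comparisons pointed the same way for most RNAs called in HA-HY. Of the 131 RNAs higher in HA than in HY, 123 had a positive difference in IA-IY (93.9%), and of the 57 lower ones 50 had a negative difference (87.7%). Over all 3315 RNAs the share of equal sign was 61.9%. The sizes in IA-IY were smaller, with medians of 0.32 and -0.30, and 54 and 30 of these RNAs reached an unadjusted p below 0.05 there. Since these RNAs were selected for their calls in HA-HY, smaller sizes in IA-IY can follow from the selection alone. They do not show that the age difference was larger in heterochronic kidney. In turn all 12 RNAs called in IA-IY had the same sign in HA-HY, and 7 were called there. The difference between the age contrasts, which equals that between HA-IA and HY-IY, was called for no RNA (0%; limma, 184 RNAs at an unadjusted p below 0.05), so the age differences were not shown to differ between heterochronic and isochronic kidney. Only HY mice were transgenic, so strain enters HA-HY and also this difference between contrasts, and its part cannot be told apart. For miR-147-3p the values were 2.09 in HA-HY and 0.74 in IA-IY, for miR-551b-3p -2.78 and -0.85, and for miR-124-3p 1.72 and 3.65.

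**Figure D4:**
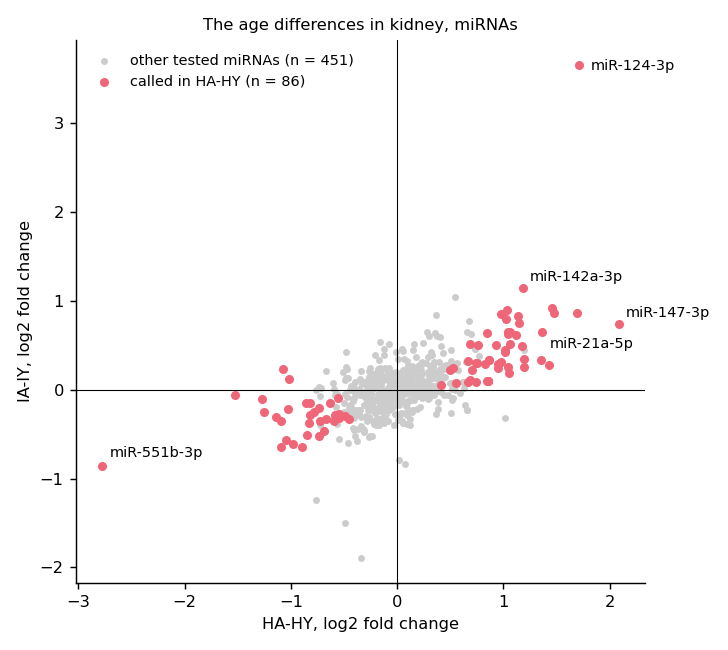
Log2 fold changes of the 537 tested miRNAs in HA-HY (horizontal) and in IA-IY (vertical), with the 86 miRNAs called in HA-HY in red and the others in gray. Most red points lie in the upper right and lower left, and nearer to 0 on the vertical axis, except for miR-124-3p. The red points were selected on the horizontal axis, so smaller values on the vertical axis can follow from the selection alone.

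The comparison of HA with IA asks whether a young partner, here also of the transgenic strain, altered the aged kidney. It gave 2 calls (0.0603%), both higher in HA, while 359 RNAs had an unadjusted p below 0.05. HA-IA shares the HA libraries with HA-HY and the IA libraries with IA-IY, so these results are not independent. miR-147-3p was higher, at 16.5 ± 3.03 against 7.17 ± 3.16 rpmm (n = 6 and 8, 1.16 ± 0.20, adjusted p = 0.0101), and the ranges overlapped only through IA 19B. It was no longer called when the HA and IA libraries alone entered the fit, with edgeR, or without both HA 14A and IA 7B, over a range of adjusted p of 0.000572 to 0.115. The lncRNA Gm49795, which was below the level for naming and is mentioned after its values were seen, was 1.41 ± 0.611 against 0.522 ± 0.293 rpmm (0.64, adjusted p = 0.0386). edgeR called 0 RNAs and DESeq2 15, and 1 was called with the pair as a random block. The count was 21 without IA 6A, 18 without HA 20A, 13 without IA 19B, 4 without HA 14A, and 1 without HA 11A, 12A or 1A or IA 19A, 6B, 7A, 7B, 9A or 9B. Without the 3 mice of the other substrain (HA 20A, IA 19A and 19B) it was 40, 31 higher and 9 lower.

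The next RNAs by p were not called. The snoRNA Gm24119 (chr10:91118291-91118536, minus strand) was 24.9 to 45.8 rpmm in HA and 48.7 to 72.8 in IA, the only tested RNA whose HA and IA ranges did not overlap (-0.84 ± 0.19, adjusted p = 0.0872). tRNA-Lys-CTT-13-1 (0.74 ± 0.17, adjusted p = 0.0872), miR-190a-5p (-0.80 ± 0.19, adjusted p = 0.0872) and 5430416N02Rik (0.74 ± 0.19, adjusted p = 0.145) followed. For the miRNAs most raised in HA against HY the values in HA-IA were 0.69 for miR-21a-5p, 0.68 for miR-214-3p, 0.49 for miR-146b-5p, 0.85 for miR-212-3p and 0.78 for miR-223-3p, none of them called, and for miR-551b-3p the value was -1.48. miR-124-3p was at -1.42 ± 0.47 (adjusted p = 0.273).

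IA libraries 6A and 19B were often those nearest to the HA libraries. They were the 2 highest IA libraries for 5 of the 8 named miRNAs that were higher in HA than HY, with 10.8 and 13.4 rpmm of miR-147-3p, 43.4 and 26.3 of miR-212-3p, and 223 and 216 of miR-223-3p. They were the 2 lowest for 6 of the 8 lower ones, with 10.8 and 9.08 rpmm of miR-551b-3p, where the next IA library was at 28.9. This was noticed after the values were seen. The mice come from different pairs and pools, and of them only 19B is of the other substrain.

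The comparison of HY with IY asks whether an aged partner altered the young kidney. No RNA was called (0%; limma), 128 had an unadjusted p below 0.05, edgeR called 0 and DESeq2 called 1, miR-369-5p. The 5 RNAs with the smallest p were entries of 2 tRNAs with closely similar values. tRNA-Gln-CTG-2-1 was 355 ± 121 in HY (n = 7) against 217 ± 56.4 rpmm in IY (n = 8), a difference of 0.67 ± 0.20 (adjusted p = 0.998), and tRNA-Gln-CTG-3-1 gave 0.67. tRNA-Gly-GCC-4-1 was 4544 ± 1628 against 2576 ± 650 rpmm (0.77 ± 0.23, adjusted p = 0.998), with 0.76 for tRNA-Gly-GCC-2-1 and tRNA-Gly-GCC-3-1. Their ranges overlapped. miR-210-3p, induced by hypoxia, was 29.6 ± 6.26 in HY and 21.7 ± 3.08 rpmm in IY (0.42 ± 0.13, adjusted p = 0.998). HY-IY shares no mouse with HA-IA, and 54.6% of all RNAs had the same sign in both.

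Lists of miRNAs for functions and cell types of the kidney are given with their calls. Lists and members were chosen with earlier results of these data known. Both arms of a hairpin, and hairpins of the same transcript, count as separate members. The shares of called members are therefore descriptive and are no independent evidence. Of the 13 tested miRNAs of fibrosis and matrix 9 were higher in HA than in HY and 0 lower, while of all 537 miRNAs 9.68% were higher and 6.33% lower, and the median was 1.12 beside -0.03 for all miRNAs. They were both arms of miR-21a, miR-199a and miR-214, with miR-199b-5p, miR-212-3p and miR-34a-5p, a target of p53 (5034 ± 2334 against 2209 ± 469 rpmm, 1.12 ± 0.19, adjusted p = 0.000444). The 3 members of the miR-29 family, which repress collagens, were not called (-0.08 for miR-29a-3p, -0.15 for miR-29b-3p and -0.31 for miR-29c-3p). The median of the list was 0.45 in IA-IY, 0.39 in HA-IA and -0.02 in HY-IY, with 0 calls in each, and in HA-HY 5 of the 13 were called within pool Para-1 and 9 without both HA 14A and IA 7B. The summed list was 47750, 75818 and 88009 rpmm in HA (lowest, median, highest) and 46470, 53718 and 72287 in HY. A large part of it was miR-29b-3p, which was not called, with 13135 to 28931 rpmm in HA and 18615 to 34955 in HY. Of 10 miRNAs of white blood cells and inflammation 5 were higher in HA-HY and 0 lower, with a median of 0.75: miR-146b-5p, both arms of miR-142a, miR-223-3p and miR-342-3p. In IA-IY 1 was called (median 0.52), and none in HA-IA (-0.04) or HY-IY (-0.19). The summed list ranged over 6262 to 10436 rpmm in HA, 6852 to 9419 in HY, 6483 to 12088 in IA and 7420 to 11016 in IY. Of this sum miR-181a-5p made up the largest share, with means of 4898 in HA and 5810 rpmm in HY (-0.27 ± 0.16, not called). miRNAs of red blood cells, 6 in the list, had a median of 0.42 in HA-HY with wide errors (miR-451a 0.56 ± 0.84) and 0 calls, and their sum ranged from 170 to 9355 rpmm among libraries.

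Of 20 miRNAs of kidney epithelium 3 were lower in HA than in HY and 0 higher, with a median of -0.16, beside the 6.33% of all miRNAs that were lower. The other lists of HA-HY stand against the same 9.68% higher and 6.33% lower. The 3 were miR-192-5p (10104 ± 3095 against 15696 ± 2781 rpmm, -0.67 ± 0.15, adjusted p = 0.00667), miR-30e-5p (-0.74 ± 0.20, adjusted p = 0.0230) and miR-190a-5p, and with the pair as a block the count was 1. The 5 miRNAs of the miR-200 family differed by -0.23 to 0.34, none called. The summed list was 36955, 46203 and 57392 rpmm in HA and 48002, 56982 and 77912 in HY. Of 10 miRNAs of hypoxia and metabolism 1 was higher and 4 lower in HA-HY (median -0.52): miR-802-5p rose by 1.05 ± 0.27, and miR-210-3p (-0.55), miR-107-3p (-0.73), miR-365-3p (-0.86) and miR-455-3p fell, with miR-148a-3p alone called in IA-IY. With the pair as a block, 1 was higher and 0 lower in HA-HY. Of the 9 miRNAs of the miR-17 to 92 cluster and its relatives, which act in proliferation, 2 were higher in HA-HY (miR-17-5p and miR-18a-5p; 1 with the pair as a block), and the median was 0.29 in HA-HY and 0.33 in HA-IA, where 9 of 9 were above 0 without a call. The 9 let-7 miRNAs gave 0 calls and were below 0 in IA-IY in 9 of 9 (median -0.33). Of 8 tested miRNAs in a list of the study's global aging miRNAs, to which miR-29b-3p was added here as a family member, and which the study chose on samples of this series, so that they are no independent evidence, 2 were higher in HA-HY, miR-184-3p and miR-1895. The 5 miRNAs of neurons gave 1 higher (miR-124-3p) and 1 lower (miR-138-5p, -0.55 ± 0.14; 0 with the pair as a block), and the 2 of pancreas 1 higher, miR-375-3p. Lists for vessel wall (6), muscle (6), liver (2), skin (2) and the Dlk1-Dio3 cluster (24) gave 0 calls in each of the 4 comparisons, apart from 1 higher of muscle in HA-HY with the pair as a block.

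**Figure D5:**
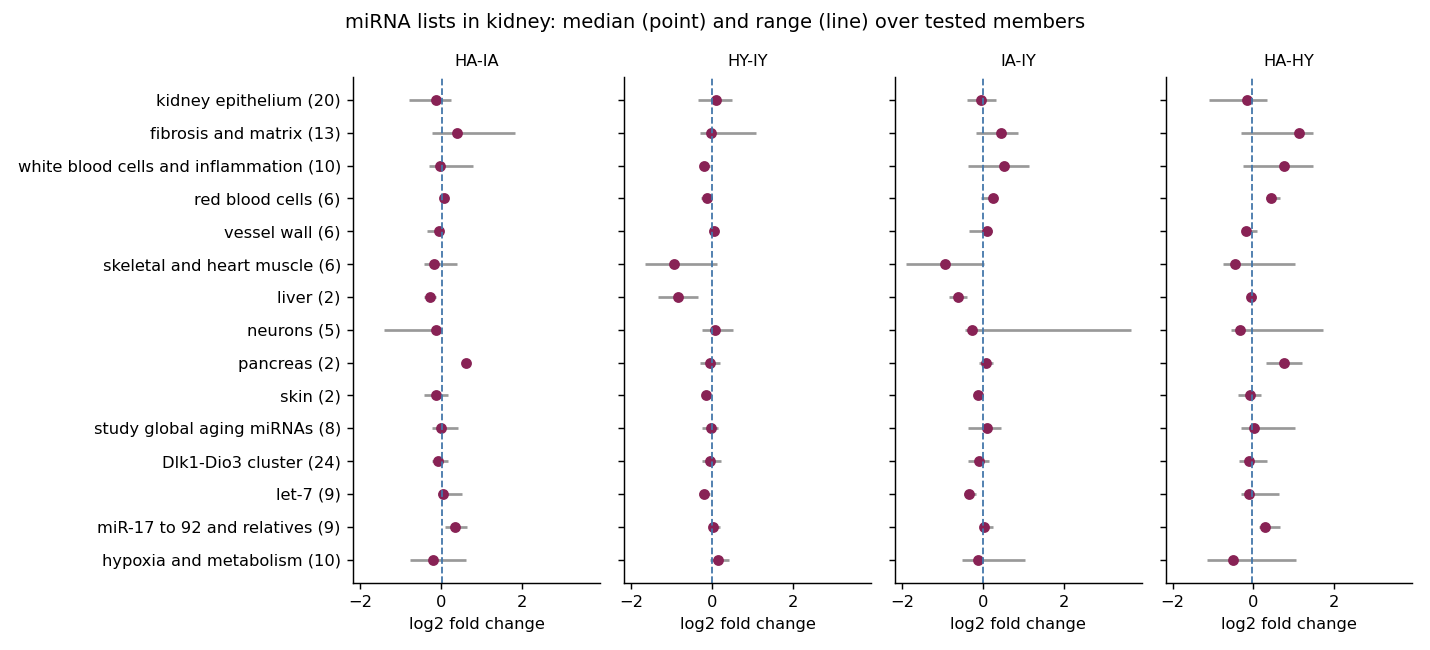
Median log2 fold change (point) and range (line) of each miRNA list in the 4 comparisons, with the number of tested members in brackets and the median of all tested miRNAs as a dashed line. The lists for fibrosis and matrix and for white blood cells have their largest medians in HA-HY (1.12 and 0.75), and the muscle list lies lowest in HY-IY and IA-IY.

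Fragments of tRNA were higher in HA than in HY in 44 of 214 entries (20.6%), from 13 of 50 anticodons, and lower in none, while 5.67% of all RNAs were called. Asp-GTC held 13 of them among its 16 entries, with 1540 against 991 rpmm at the most abundant entry, and Met-CAT held 5 of 6. Entries of an anticodon share much of their sequence and reads, so they are not separate observations. The median over the 214 entries was 0.34 in HA-IA, 0.17 in HY-IY, 0.33 in IA-IY and 0.43 in HA-HY, beside 0.07, 0.02, 0.02 and 0.01 for all RNAs, with 0 calls in the first 3 comparisons. The calls fell to 16 when HA and HY libraries alone entered the fit, to 7 with the pair as a block and to 0 within pool Para-1, and to 8 without HA 1A, 9 without HY 14B, 10 without HA 12A or HA 14A, 14 without HY 12B or HY 20B, 16 without HY 11B, 20 without HY 1B and 23 without HY 2B. They were 11 without both HA 14A and IA 7B. Summed over the class, tRNA took 4.41 ± 0.764% of the signal in IA and 3.04 ± 0.540% in IY (exact permutation test, two-sided, p = 0.00140, adjusted over 32 comparisons p = 0.0448), 5.68 ± 1.14% in HA and 4.52 ± 1.33% in HY (p = 0.122, exact). The tRNA share was also 1.47 points higher in HY than in IY (exact permutation test, two-sided, p = 0.0138, adjusted p = 0.148). It was 1.27 points higher in HA than in IA (exact permutation test, two-sided, p = 0.0313, adjusted p = 0.202). The differences by partner were thus similar in size to those by age, 1.37 points in IA-IY and 1.17 in HA-HY. When RNAs with identical values were counted once, the adjusted p for IA against IY was 0.0522. These permutations took single mice as units, although the IA and IY mice came from 4 joined pairs each. They thus ignored the pairing, and a permutation by pairs was not made. miRNAs took 24.7 ± 4.13% of the signal in HA, 26.1 ± 1.77% in HY, 22.6 to 31% in IA and 26.7 ± 1.74% in IY, and no other class share differed at an adjusted p below 0.05.

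The kidney differences were set against the mean of the same difference in gonadal and mesenteric fat, heart, limb muscle and liver of the same experiment. All available libraries were used, 29 of kidney, 27 of mesenteric fat and 30 of each other tissue, so the sets of mice differed slightly. Most libraries of the other tissues were in other pools than those of kidney. In HA-HY 27 RNAs departed from the other tissues (0.814%), 11 upward and 16 downward, in IA-IY 5 (0.151%), in HA-IA 3 (0.0905%) and in HY-IY 0 (0%; limma, 20 at an unadjusted p below 0.05). miR-551b-3p departed the most in HA-HY, by -2.81 (adjusted p = 1.54e-10), and also in HA-IA, by -1.55 ± 0.33 (adjusted p = 0.0119). Kidney held more of it than the others, whose group means were 0.691 to 11.3 rpmm and whose HA-HY differences ran from -0.42 to 0.50. Both arms of miR-874 (-1.51 and -1.63) and of miR-190a (-1.03 and -1.12), and miR-1968-5p (-1.14), also fell more in kidney. Group means of miR-1968-5p were 0.506 to 6.59 rpmm in the other tissues and 6.39 to 16.1 in kidney. Those of the miR-874 arms were 2.00 to 15.6 and 23.2 to 72.3 rpmm. As 1 rpmm was added before the log, a fall of equal fold looks smaller at such low levels. How much this added to the departures was not tested. miR-147-3p rose more in kidney, by 1.52 (adjusted p = 0.0106), though it was also above 0 in each of the other 5 tissues (0.02 to 1.23). Its group means were 0.305 to 0.501 rpmm in liver and 0.832 to 4.04 in limb muscle, where the added 1 rpmm makes a rise look smaller. How much this added to its departure was not tested. Gm50451 rose more by 1.36 (adjusted p = 0.00425). In IA-IY miR-124-3p departed by 3.33 (adjusted p = 0.000248) and Mir124a-1hg by 2.20, while in the other tissues miR-124-3p differed by -1.51 to 1.58. The other 3 in IA-IY were miR-337-3p (0.96), miR-653-5p (0.51) and Gm47948 (-0.73), and the other 2 in HA-IA were miR-653-5p (0.42) and miR-3073b-3p (-0.37), named after their values were seen. miR-21a-5p, miR-214-3p, miR-146b-5p, miR-212-3p, miR-223-3p and miR-375-3p were not called as different from the other tissues.

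Kidneys of mice that were never joined, from the aging cohort of the same series, were compared at 21 and 3 months (n = 5 and 5). Unlike the joined mice, they were of both sexes, with 1 female at 21 and 2 at 3 months. Of 3732 RNAs 1 was called (0.0268%; 2 in males alone): miR-142a-3p, at 896 ± 72.1 against 258 ± 168 rpmm (2.05 ± 0.41, adjusted p = 0.0290). The median over all miRNAs was 0.80 in this comparison and that over all RNAs -0.12, so directions are given on values scaled to the summed miRNA signal, where limma called 0 RNAs (675 at an unadjusted p below 0.05) and miR-142a-3p differed by 1.00. On this scale 45 of the 52 miRNAs higher in HA than HY were above 0 (86.5%), 15 of the 34 lower ones were below 0 (44.1%), and 60.3% of 527 miRNAs had equal sign. Of the named miRNAs higher in HA, miR-223-3p (1.24), miR-214-3p (1.13), miR-124-3p (1.81), miR-146b-5p (0.81), miR-147-3p (0.59), miR-212-3p (0.59) and miR-21a-5p (0.42) were above 0. miR-375-3p (-0.04) was not. Of those lower in HA, miR-551b-3p (-1.05), miR-190a-5p (-0.78), miR-190a-3p (-0.60) and miR-12206-5p (-0.38) were below 0. By contrast miR-874-3p (0.56), miR-455-3p (0.50), miR-874-5p (0.05) and miR-1968-5p (0.02) were above 0. None of these was called.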

How the data were processed

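Libraries were single-end BGISEQ500RS small RNA libraries. The deposited values are a normalized signal, reads of an RNA relative to the aligned reads of its library (rpmm), which the authors made with miRMaster and Bowtie (1 mismatch) against miRBase, GtRNAdb, RNACentral and Ensembl (build mm10). They left out shallow libraries and RNAs under 1 rpmm in all libraries, and kept the first paralog. Since a read can be counted for several RNAs, the sums over RNAs were 1438464 to 1759099 rpmm. Of the 5248 RNAs in the table, 3315 passed the filter used here (1 rpmm in 10% of kidney libraries), and 228 tested RNAs had values identical to another. Values came out as whole reads (within 0.05) for at least 98.0% of low values, so edgeR and DESeq2 could be run on recovered reads.

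Groups came from the pair numbers and ages in the labels. log2(rpmm + 1) was fitted with limma (version 3.58.1, with a trend) over all 29 libraries with 4 group means, and p-values were adjusted over all RNAs. The spread is that between mice, and isochronic mice came in joined pairs. Alternatives were edgeR 4.0.16, DESeq2 1.42.0, other pseudocounts, filters, scalings and sample sets, and the study's criterion of a ratio over 1.5 with a small unadjusted p. Named RNAs were, for each comparison and direction, up to 8 called miRNAs and 4 other called RNAs with at least 10 rpmm in the higher group, by size of the difference, and, with fewer than 4, the 5 with the smallest p. Members and lists were chosen with earlier results of these data known. Classes and positions were from GENCODE for GRCm38, and 39 RNAs had no class. The scripts were tested on simulated data. The other 720 columns of the aging cohort were not used, and the 51 kidney columns of that cohort were fitted in a model of their own. The name of the transgenic strain of the HY mice is not reported here. The pair number marks mice that were surgically joined. Deviations of partners from their group means correlated by r = 0.42, -0.08, 0.37, 0.02, -0.17 and 0.39 in the 6 complete heterochronic pairs, and 3 of 6 HA libraries correlated best with their own partner. Fits with the pair as a block were alternatives.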

Additional observations from a re-analysis of the deposited data

Results flagged for a closer look

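Of 136 sets of values (a named RNA in a group), 9 held a library whose distance to its neighbor was large against the range of the group by Dixon's criterion, about as many as chance gives, which is 1 in 20. They were miR-190a-5p in IA 19B (549 rpmm, others 880 to 1304), miR-450b-3p in HY 20B (12.8, others 8.12 to 9.82) and in IA 6A (10.3, others 5.47 to 7.38), and miR-375-3p in HY 12B (337, others 94.5 to 136). Gm50451 stood out in IY 10B (150, others 54 to 79.9) and in HY 12B (94.8, others 65.2 to 75.6), Gm49890 in HA 20A (315, others 443 to 526), and miR-874-5p in IY 16A (72.3, others 31.2 to 45) and in IA 19B (18.2, others 35.1 to 62.8).

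For 10 differences of named RNAs the test of kidney against the other 5 tissues passed the threshold. In IA-IY they were miR-124-3p (3.33, adjusted p = 0.000248) and Mir124a-1hg (2.20, adjusted p = 2.97e-05). In HA-HY miR-147-3p (1.52, adjusted p = 0.0106) and Gm50451 (1.36, adjusted p = 0.00425) departed upward. miR-551b-3p (-2.81, adjusted p = 1.54e-10), miR-874-3p (-1.63, adjusted p = 0.000451), miR-874-5p (-1.51, adjusted p = 0.000226), miR-190a-3p (-1.12, adjusted p = 0.0201), miR-190a-5p (-1.03, adjusted p = 0.0462) and miR-1968-5p (-1.14, adjusted p = 0.000188) departed downward.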

How the results depend on the processing

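Of 1082 values of named RNAs under the alternatives 964 kept direction and side of the threshold, 93 fell below it and 25 rose above it, none reversed, and of 360 list medians 354 moved by less than the spread. HA-IA counts were 1 with a pseudocount of 0.1 rpmm, with the pool in the model and without HA 14A and IA 7B, 0 with a mean of at least 10 rpmm, with the compared groups alone and with edgeR, 4 with miRNAs alone, 13 in pool Para-1, 15 with DESeq2, 40 without the 3 mice of the other substrain and 150 by ratio and p, and 1 to 21 with a library left out. HY-IY counts were 1 with DESeq2 and 71 by ratio and p, and 0 with a library left out. IA-IY counts were 2 in Para-1 or with IY of 4.5 months, 5 with the pool, 20 with IY of 3 months, 21 with the compared groups alone, 28 without HA 14A and IA 7B, 29 with miRNAs alone, 89 with DESeq2 and 170 by ratio and p, and 7 to 45 with a library left out. miRNA-signal scaling gave 26 (23 higher, 3 lower) and median-ratio scaling 20 (11 higher, 9 lower). HA-HY counts were 60 in Para-1, 120 with a mean of at least 10 rpmm or the compared groups alone, 122 with miRNAs alone, 362 by ratio and p, and 113 (without HA 1A) to 235 with a library left out (120 without HY 20B). The class shares gave 0 with identical RNAs counted once, and the aging cohort 2 in males alone, 4 with the set as a covariate and 0 with either scaling. The alternatives without 14A and 7B and in Para-1 alone were chosen after seeing the data. The cause was not tested, apart from the smaller numbers of RNAs or libraries in some.

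With the replicate block as a random term, pairing each mouse with its partner, the counts were 1 in HA-IA, 0 in HY-IY, 8 in IA-IY, 223 in HA-HY and 0 for the difference of contrasts, and with the pair as a fixed block HA-HY gave 95 (79 higher, 16 lower). Among the named RNAs the block ended 6 calls, those of miR-450b-3p in IA-IY and of miR-874-3p, miR-190a-3p, miR-455-3p, miR-12206-5p and Gm24601 in HA-HY, and no other.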
